A study of Mus musculus with 12 samples.

Results

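The genes described here are ribosome biogenesis factors, the proteins that transcribe and process ribosomal RNA and fold it into ribosomal subunits. They were chosen by name, from a list of 42 factors of rRNA processing, small nucleolar ribonucleoproteins (snoRNPs) and pre-ribosome assembly. The list was drawn up with earlier results of these data known, so its counts are not those of a blind choice. A row of the deposited count table carried 41 of the 42 names, out of 23965 gene rows, and Noc2l was not analysed here. In cells, RNA polymerase I transcribes a long precursor rRNA in the nucleolus, snoRNPs guide its chemical modification, and a large complex, the small subunit processome, assembles on it. The precursor is then cut, and the small (40S) and large (60S) subunits mature separately on their way to the cytoplasm. Dividing neural progenitors depend on this pathway, and genes of the pathway are widely known as targets of the transcription factor Myc.

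The RNA came from neurospheres, floating cultures of neural progenitors, grown from E11.5 ventral midbrain of the CD-1 mouse strain. All spheres were expanded for 3 days and then kept for 5 h in N2 medium with GW3965+CT99021, with CT99021 alone, with GW3965 alone, or as control, for which the labels give the solvent DMSO or no treatment. CT99021 inhibits glycogen synthase kinase 3 (GSK3), which restrains Wnt/beta-catenin signalling, and GW3965 activates the liver X receptors (LXR), nuclear receptors for oxysterols. Each group had 3 libraries, numbered 1 to 3 in every group, and doses were not given in the sources used here. Nothing in the labels gives each replicate a culture or litter of its own. The p-values therefore describe spread between libraries, part or all of which may be technical. Those of the calls below describe only the spread left after differences between the replicate numbers are taken out.

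Libraries held 9646424 to 21314093 counts in gene rows, and member counts per library ran from 111 (Gar1 in GW3965 replicate 3) to 22217. Neural progenitor markers were present in every library, with summed levels of 2480 to 4290 CPM (counts scaled to a common library total). Midbrain markers summed to 211 to 526 CPM. The cultures also held RNA of other cells: erythroid markers summed to 2080 to 11900 CPM and mesenchyme and pericyte markers to 220 to 3660 CPM, and no marker of these lists was at 0 throughout a group. The libraries numbered 3 stood apart, with floor plate and dopaminergic progenitor markers at 262 to 385 CPM against 59.6 to 71.6 CPM in the others. In bulk RNA, fewer cells of a type and less RNA per cell cannot be told apart. CT99021 replicate 1 gave 7.95% of its counts to 1 gene, Lars2, which took 0.0336% to 0.142% elsewhere.

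Libraries with the same number resembled each other across groups, so every comparison was fitted with edgeR's quasi-likelihood test with and without the replicate number as a block, with p-values adjusted over 15608 genes by the Benjamini-Hochberg method. Below, "rose" and "fell" mean an adjusted p under 0.05 with the block, fold changes are those of that fit on the log2 scale, and ± gives a standard error. Without the block no member passed in any comparison, and the lowest adjusted p was 0.191 for CT99021 against control, 0.166 for GW3965+CT99021 against GW3965 and 0.103 for GW3965+CT99021 against control. At an unadjusted p under 0.05 in edgeR without the block, 22, 23 and 26 members passed in these comparisons. Over all genes this was counted in CT99021 against control only, where 1514 of 15608 passed in either direction. DESeq2 without the block called 5, 5 and 12 members. Of all genes it called 123, 191 and 275 higher and 198, 273 and 298 lower. With edgeR without the block, 0.0577% of all genes tested fell and none rose in CT99021 against control at the adjusted threshold. In GW3965+CT99021 against GW3965 0.00641% rose and 0.0705% fell, and in GW3965+CT99021 against control 0.0192% rose and 0.0961% fell. All of the calls below therefore rest on comparing libraries within a replicate number.

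The biogenesis factors were well expressed in the control libraries. Per transcript length, their median was 21.2 FPKM (CPM per kilobase of transcript), against 8.5 FPKM for all genes tested, and 37 of the 41 were above that median. Npm1 had the highest control level, at 297 ± 39.6 FPKM (SD, n = 3), followed by Ncl at 91.8 ± 22.2 FPKM and Fbl at 68.7 ± 21.6 FPKM. The ranges of Ncl and Fbl overlapped (66.5 to 108 FPKM and 43.7 to 81.8 FPKM), so their order was within the spread of the libraries. Mybbp1a and Nop56 came next at 55.6 and 55.5 FPKM. Wdr12 was lowest at 6.38 ± 1.27 FPKM, next to Noc3l at 7.87 ± 1.46 FPKM, and these 2 also overlapped.

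CT99021 was followed by higher levels of nearly the whole set. With CT99021 against control, 37 of the 41 members rose and none fell, where 8.23% of all genes tested rose and 7.59% fell. Scaling by library totals alone, chosen after seeing the data, gave 641 genes higher and 1383 lower in place of 1285 higher and 1185 lower, and 32 members then rose. With GW3965+CT99021 against GW3965, a comparison that shares no library with the first, 40 of the 41 rose and none fell, where 11.8% of genes rose and 8.81% fell. The 2 comparisons are still not independent, as they come from 1 fit with a shared block and spread. The calls of Imp3 and Utp18 in the second were lost without control replicate 1 or 2. They were also lost with library totals alone and without replicate 1 or 2 of either group compared. Imp3 passed in 12 and Utp18 in 10 of 20 alternatives with the block. The member median was a log2 change of 0.58 in CT99021 against control and 0.56 in GW3965+CT99021 against GW3965, beside 0.02 and 0.01 for all genes tested. A total of 37 members rose in both, where 1032 of the 15608 genes did. The members that did not rise in CT99021 against control were Nhp2, Nop10, Imp3 and Imp4, and only Nop10 did not rise in GW3965+CT99021 against GW3965. Over 20 alternatives with the block, 26 members passed in all of them in CT99021 against control and 30 in the second comparison. Heatr1, Bop1 and Ncl were among those lost against control when some single libraries were left out.

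**Figure D1:**
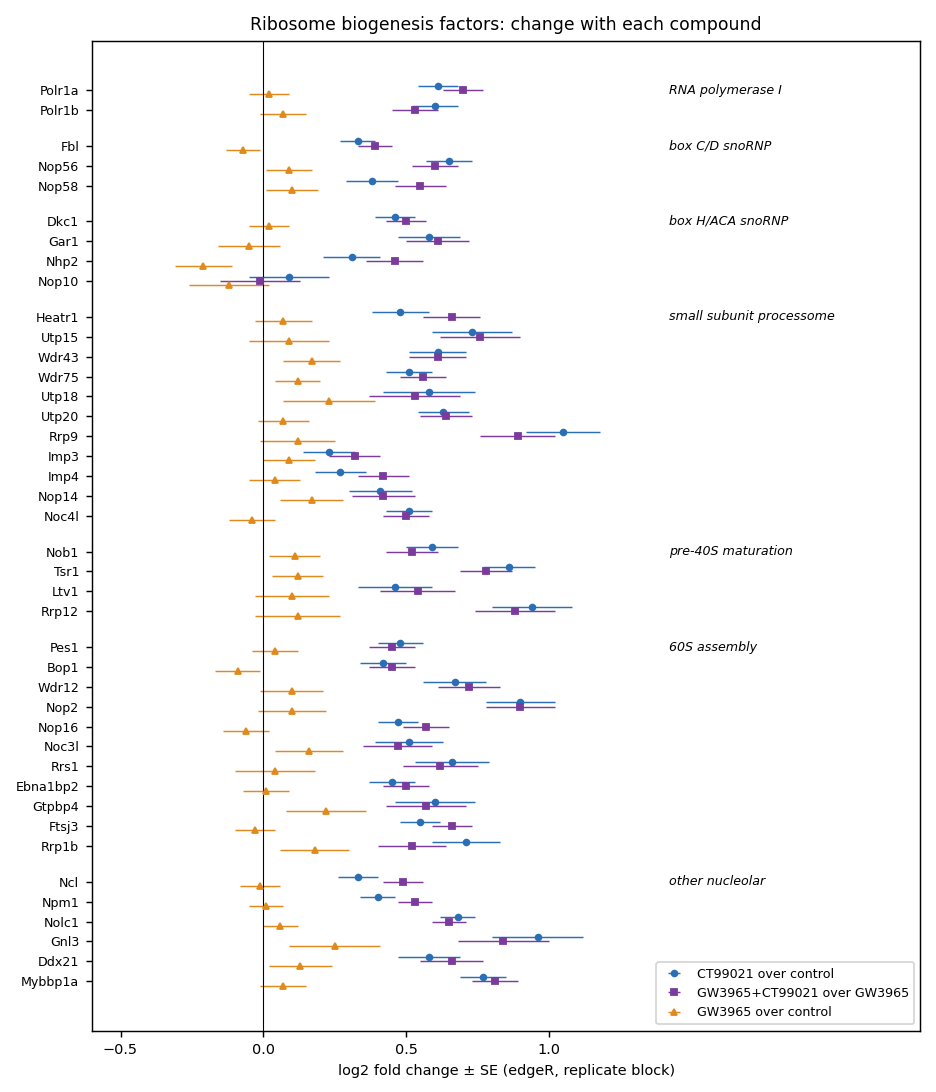
Log2 fold change (x axis, with standard error, edgeR with the replicate block) of each of the 41 members (y axis, grouped by role) for CT99021 against control, GW3965+CT99021 against GW3965, and GW3965 against control. The changes with CT99021 lie at a median of 0.58 and 0.56, and those with GW3965 alone lie between -0.21 and 0.25.

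Within a replicate number, all 41 members were higher in the CT99021 library than in the control library in all 3 numbers, where 28.5% of genes were. The member medians of these ratios were 0.53, 0.60 and 0.46 on the log2 scale for numbers 1, 2 and 3. For GW3965+CT99021 over GW3965 they were 0.55, 0.67 and 0.54, with 40 members higher in all 3 (29.8% of genes), Nop10 being the other. Taking libraries without regard to number, the CT99021 and control libraries of only 9 members did not overlap (7.22% of genes): Polr1a, Utp15, Utp20, Nob1, Tsr1, Wdr12, Npm1, Gnl3 and Mybbp1a. The GW3965+CT99021 and GW3965 libraries of 25 members did not overlap (8.18% of genes), nor did those of 26 members in GW3965+CT99021 and control (9.13% of genes). No member's libraries were apart and higher in GW3965 against control (1.26% of genes) or in GW3965+CT99021 against CT99021 (1.66% of genes).

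Levels also differed between replicate numbers, by about as much as between CT99021 and control. Library 3 of each group lay below the mean of libraries 1 and 2 for 41 members in GW3965+CT99021, 41 in CT99021, 36 in GW3965 and 41 in control libraries. The member medians of that difference were -0.49, -0.73, -0.39 and -0.62 on the log2 scale in the same order of groups, with medians of all genes between -0.02 and 0.01. Floor plate markers were higher in the same libraries, as given above. So were erythroid markers (7310 to 11900 CPM against 2080 to 6210 CPM in the others). Mesenchyme and pericyte markers were higher as well (2410 to 3660 against 220 to 2150 CPM). Neural progenitor markers were lower (2480 to 2940 against 2980 to 4290 CPM), as were midbrain markers (211 to 255 against 338 to 526 CPM). The part of any of these cell types in the difference between numbers was not tested.

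**Figure D2:**
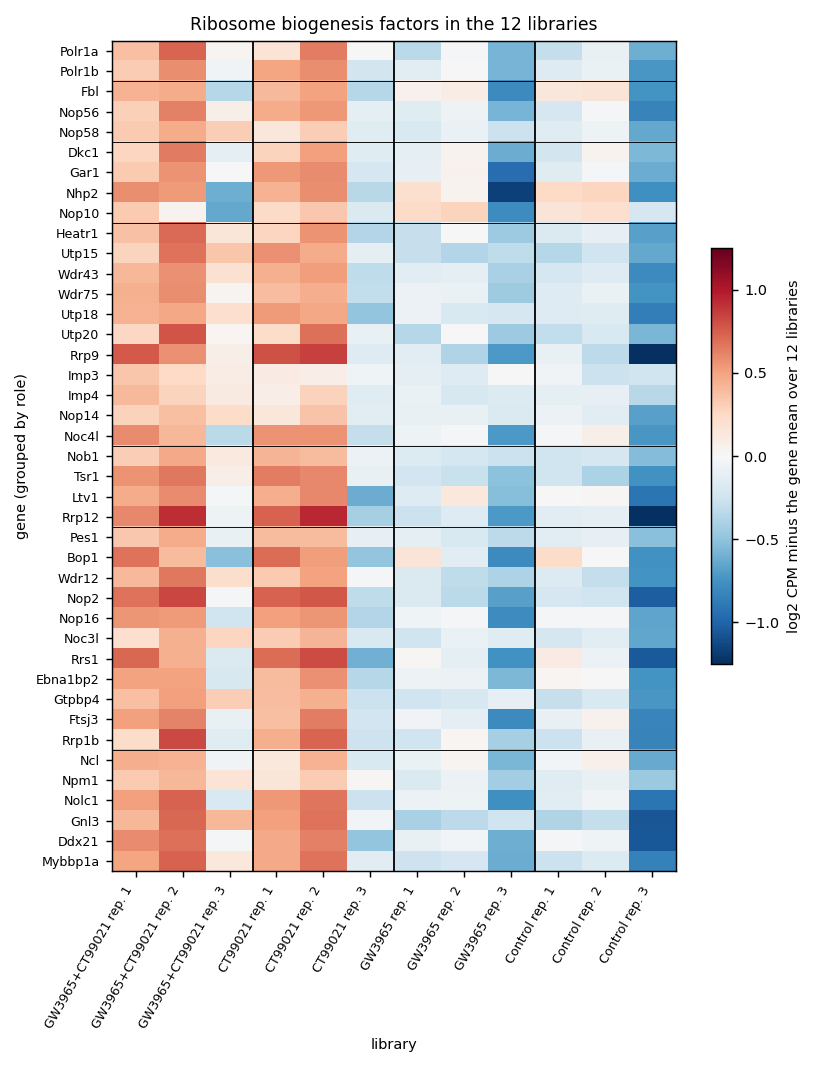
Level of each member (rows, grouped by role) in the 12 libraries (columns, GW3965+CT99021 to control), as log2 CPM minus the gene's mean over the libraries. Within a replicate number nearly all members are higher with CT99021 than without it, and in each group at least 36 of 41 are lower in the library numbered 3 than in the other two.

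At the top of the pathway are the subunits of RNA polymerase I. Polr1a, its largest subunit (chromosome 6, position 71858946 in mm9 as the table lists it), had 136, 173 and 107 CPM in GW3965+CT99021, 118, 163 and 104 CPM in CT99021, 82.7, 103 and 70 CPM in GW3965 and 84.9, 98.2 and 68.5 CPM in control libraries. Every CT99021 library exceeded every control library, and it rose by 0.61 ± 0.07 (adjusted p = 0.000754) against control and by 0.70 ± 0.07 (adjusted p = 0.000329) in GW3965+CT99021 against GW3965. Polr1b, the second largest subunit (chromosome 2, position 128926631), had 64.9, 78.1 and 50.6 CPM in GW3965+CT99021, 73.4, 78.1 and 44.5 CPM in CT99021, 47.4, 51.9 and 34.8 CPM in GW3965 and 46.8, 49.4 and 31.5 CPM in control libraries. Here the CT99021 library numbered 3 lay below the control libraries numbered 1 and 2, and the change was 0.60 ± 0.08 (adjusted p = 0.00179) and 0.53 ± 0.08 (adjusted p = 0.00225) in the 2 comparisons.

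The snoRNP proteins had lower median changes than the polymerase subunits, 0.38 for both classes against 0.60 in CT99021 against control, a difference that was not tested. Box C/D snoRNPs carry guide RNAs for 2'-O-methylation of rRNA, and all 3 of their core proteins measured rose, with changes of 0.33 to 0.65 against control. Fbl, fibrillarin, the methyltransferase itself (chromosome 7, position 28954666), had 125, 127 and 71.8 CPM in GW3965+CT99021, 122, 131 and 71.9 CPM in CT99021, 95.5, 98.2 and 53.3 CPM in GW3965 and 102, 103 and 55.1 CPM in control libraries. It changed by 0.33 ± 0.06 (adjusted p = 0.00514) against control. The library numbered 3 was the lowest of every group. The scaffold proteins Nop56 and Nop58 changed by 0.65 ± 0.08 (adjusted p = 0.0016) and 0.38 ± 0.09 (adjusted p = 0.0209). Box H/ACA snoRNPs carry guides for pseudouridylation, and 2 of their 4 proteins rose in CT99021 against control and 3 of 4 in GW3965+CT99021 against GW3965. Dkc1, dyskerin, the pseudouridine synthase (chromosome X, position 72341092), had 84.3, 110 and 64.2 CPM in GW3965+CT99021, 84.9, 100 and 63.2 CPM in CT99021, 64.3, 72.2 and 45.5 CPM in GW3965 and 59.9, 72.1 and 47.5 CPM in control libraries, a change of 0.46 ± 0.07 (adjusted p = 0.00258) against control. Gar1 changed by 0.58 ± 0.11 (adjusted p = 0.00894) and Nhp2 by 0.31 ± 0.10 (adjusted p = 0.0568).

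Nop10, the smallest protein of this complex, was the only member that rose in neither comparison. It lies on chromosome 2 at position 112102025 and had 32.8, 26.8 and 16.7 CPM in GW3965+CT99021, 30.7, 33 and 23 CPM in CT99021, 30.7, 31.6 and 15.1 CPM in GW3965 and 29.1, 30.2 and 22.5 CPM in control libraries. The groups overlapped throughout. The change was 0.09 ± 0.14 (95% interval -0.22 to 0.40, adjusted p = 0.722) in CT99021 against control and -0.01 ± 0.14 (-0.32 to 0.30, adjusted p = 0.968) in GW3965+CT99021 against GW3965.

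The small subunit processome binds the 5' part of the precursor and cuts it on the way to 18S rRNA. Of its 11 members, 9 rose in CT99021 against control and all 11 in GW3965+CT99021 against GW3965, with medians of 0.51 and 0.56. Rrp9, a protein of the U3 snoRNP (chromosome 9, position 106379539), had the largest change of all members in CT99021 against control. It had 52.3, 45.8 and 32.4 CPM in GW3965+CT99021, 53.5, 55.7 and 27.6 CPM in CT99021, 28, 23.7 and 18.7 CPM in GW3965 and 28.8, 24.6 and 12.8 CPM in control libraries. CT99021 replicate 3 lay just under control replicate 1, and the change was 1.05 ± 0.13 against control, 2.07-fold (adjusted p = 0.00149), and 0.89 ± 0.13 (adjusted p = 0.00217) in GW3965+CT99021 against GW3965, where Nop2 was at 0.90. Heatr1, a large scaffold of the processome that is also needed for transcription of rDNA (chromosome 13, position 12487541), had 103, 130 and 88.8 CPM in GW3965+CT99021, 96.4, 118 and 62.1 CPM in CT99021, 65.5, 80 and 58.2 CPM in GW3965 and 70.4, 74.2 and 49.7 CPM in control libraries. It changed by 0.48 ± 0.10 (adjusted p = 0.0113) against control and 0.66 ± 0.10 (adjusted p = 0.00233) in the second comparison. The U3 snoRNP partners Imp3 and Imp4 had the smallest changes of this class. Imp3 (chromosome 9, position 56785206) had 40.6, 37.9 and 34.2 CPM in GW3965+CT99021, 34.4, 34 and 30.9 CPM in CT99021, 29.6, 28.6 and 32.1 CPM in GW3965 and 31.1, 26.5 and 27 CPM in control libraries. Imp4 (chromosome 1, position 34496573) had 45.7, 41.8 and 37.4 CPM in GW3965+CT99021, 36.7, 42.3 and 31 CPM in CT99021, 32.7, 30 and 30.7 CPM in GW3965 and 32, 32.1 and 27.1 CPM in control libraries. Their changes against control were 0.23 ± 0.09 (adjusted p = 0.111) and 0.27 ± 0.09 (adjusted p = 0.0778), and both rose in GW3965+CT99021 against GW3965 (0.32 ± 0.09, adjusted p = 0.0323, and 0.42 ± 0.09, adjusted p = 0.0132), where the libraries of the 2 groups did not overlap. Of 20 alternatives with the block, 12 called Imp3 and 17 called Imp4 in that comparison.

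The 4 members that act late on the 40S precursor, in its export or final cleavage, all rose in both comparisons, with a median of 0.72 in CT99021 against control and 0.66 in the second. Rrp12, an export factor (chromosome 19, position 41937340), had 73.9, 92.7 and 46.7 CPM in GW3965+CT99021, 81.1, 94 and 36.7 CPM in CT99021, 40.6, 43.6 and 29.6 CPM in GW3965 and 44.4, 45.1 and 19.4 CPM in control libraries. Libraries 1 and 2 with CT99021 were above all control libraries and library 3 was not, and the change was 0.94 ± 0.14 (adjusted p = 0.00327). Tsr1, which occupies the 40S precursor during its last steps, changed by 0.86 ± 0.09 (adjusted p = 0.000754). Of its annotated exon bases, 32.3% overlap Srr on the other strand, and strand use in the counting was not given in the sources used here. Srr itself, at 54.6 ± 1.53 CPM in control libraries (SD, n = 3), changed by 0.29 ± 0.07 (adjusted p = 0.0202). The other members share at most 5.27% of their exon bases with another protein-coding or long noncoding gene. Overlaps with other types, such as pseudogenes and small RNA genes, were not kept.

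Large subunit assembly factors all rose, 11 of 11 in both comparisons, with medians of 0.55 and 0.57. Pes1 and Bop1 form, with Wdr12, the PeBoW complex, which is needed for maturation of the large subunit rRNAs. Pes1 (chromosome 11, position 3863877) had 96.7, 106 and 71.9 CPM in GW3965+CT99021, 101, 101 and 71.2 CPM in CT99021, 70.5, 67.2 and 60.9 CPM in GW3965 and 69.8, 71.4 and 53.3 CPM in control libraries. Bop1 (chromosome 15, position 76283425) had 102, 84.2 and 44.6 CPM in GW3965+CT99021, 104, 91.7 and 45.5 CPM in CT99021, 71.3, 58.1 and 36.8 CPM in GW3965 and 75.1, 64.3 and 37.8 CPM in control libraries. All 3 PeBoW members rose, by 0.48 ± 0.08 for Pes1 (adjusted p = 0.00509), 0.42 ± 0.08 for Bop1 (adjusted p = 0.0073) and 0.67 ± 0.11 for Wdr12 (adjusted p = 0.00488) against control. The largest change here was that of Nop2, an rRNA cytosine methyltransferase, at 0.90 ± 0.12 in each comparison (adjusted p = 0.00178 against control and 0.00149 in GW3965+CT99021 against GW3965).

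Among the abundant nucleolar proteins, all 6 members rose in both comparisons. Nucleolin (Ncl, chromosome 1, position 88241293), an RNA-binding protein of the nucleolus, had 1180, 1170 and 839 CPM in GW3965+CT99021, 947, 1170 and 756 CPM in CT99021, 815, 882 and 579 CPM in GW3965 and 844, 902 and 556 CPM in control libraries. It changed by 0.33 ± 0.07 (adjusted p = 0.0149) against control. Nucleophosmin (Npm1, chromosome 11, position 33052497), a histone and ribosome chaperone, had 792, 845 and 710 CPM in GW3965+CT99021, 703, 787 and 638 CPM in CT99021, 557, 601 and 469 CPM in GW3965 and 570, 594 and 459 CPM in control libraries, with no overlap between CT99021 and control and a change of 0.40 ± 0.06 (adjusted p = 0.00289). Npm1 has many processed copies in the mouse genome, and how reads with several positions were counted was not given in the sources used here. Nucleostemin (Gnl3, chromosome 14, position 31825618), a GTP-binding protein known from proliferating stem cells, had 116, 143 and 116 CPM in GW3965+CT99021, 124, 139 and 84.5 CPM in CT99021, 65.5, 69.3 and 73.1 CPM in GW3965 and 67, 70.4 and 41.3 CPM in control libraries. Every library with CT99021 was above every library without it, and the change was 0.96 ± 0.16 (adjusted p = 0.00465) against control. The smallest adjusted p of all members in CT99021 against control was that of Nolc1, a snoRNP chaperone, at 0.68 ± 0.06 (adjusted p = 0.000375).

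**Figure D3:**
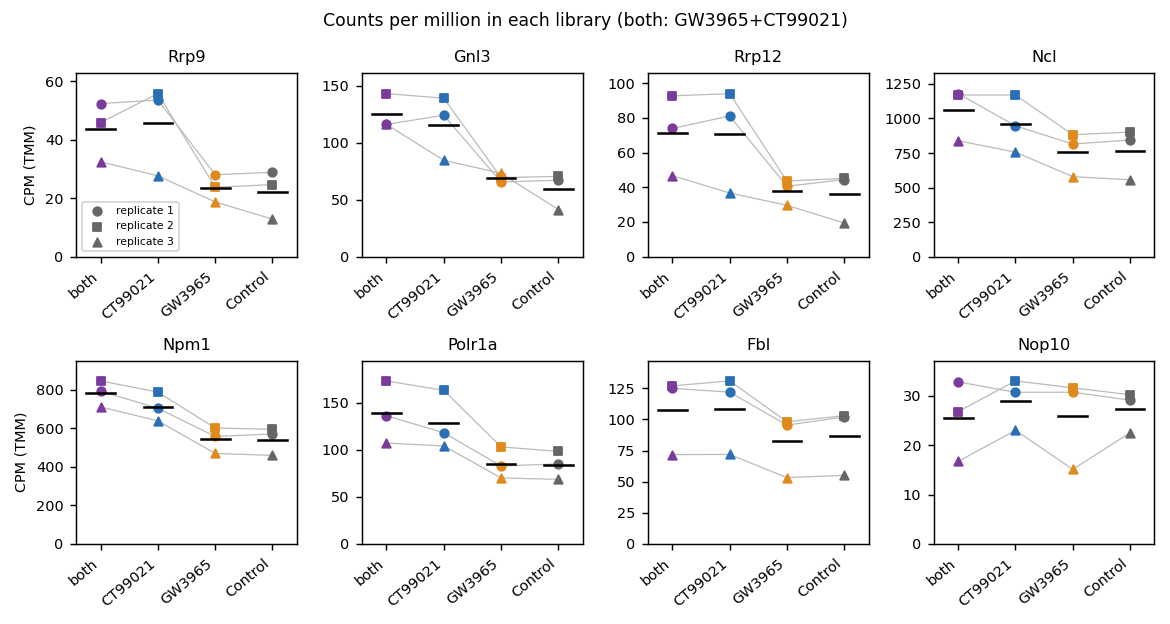
CPM (y axis, from 0, counts scaled by TMM factors) in each library for 8 members, with GW3965+CT99021, CT99021, GW3965 and control from left to right, a symbol for each replicate number, grey lines joining libraries of 1 number and black bars for the group means. For Rrp9 the CT99021 libraries lie at 53.5, 55.7 and 27.6 CPM and the control libraries at 28.8, 24.6 and 12.8 CPM, and for Nop10 the groups overlap.

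GW3965 alone moved no member past the test. None of the 41 rose or fell against control, where 0.0192% of genes rose and none fell, at an unadjusted p under 0.05 none passed, and the changes ran from -0.21 (Nhp2) to 0.25 (Gnl3), with 95% intervals between -0.43 and 0.60. The member median was 0.07. By number the medians were -0.02, -0.01 and 0.24, and library 3 of GW3965 was also high in the stress markers, which summed to 883 CPM there and to 175 CPM in control replicate 3; its part in the difference was not tested. Adding GW3965 to CT99021 likewise moved no member past the test (0 of 41, and 0.0192% of genes rose). By number its medians were 0.02, 0.05 and 0.20, and the stress markers summed to 883 CPM in GW3965+CT99021 replicate 3 against 192 CPM in CT99021 replicate 3. The changes ran from -0.21 to 0.27, with 95% intervals between -0.53 and 0.54. An unadjusted p under 0.05 was found for 3 members, and genes at that threshold were not counted over all genes here. The test of the interaction, whether the change with CT99021 depends on GW3965, called 0 of 41 members, at changes of -0.18 to 0.17 with intervals of -0.61 to 0.49, and no gene in the table. These intervals do not show that the changes are equal. With GW3965+CT99021 against control, 39 members rose and none fell (11.3% of genes rose and 8.95% fell), at a median of 0.65, and this comparison shares its control libraries with those of each compound alone.

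Many other genes of the same pathway also rose, with lower median changes. Of 106 further ribosome biogenesis names, 104 were tested, and 67 of them (64.4%) rose in CT99021 against control and 71 (68.3%) in GW3965+CT99021 against GW3965, with none falling and medians of 0.35 and 0.41. The 3 with the largest increase against control were Ccdc86 (0.98 ± 0.12, adjusted p = 0.00168), the rRNA acetyltransferase Nat10 (0.92 ± 0.11, adjusted p = 0.00153) and Rrp15 (0.87 ± 0.12, adjusted p = 0.00215). The proteins of the ribosome itself changed by smaller amounts: 51 of 81 cytosolic ribosomal protein genes rose at a median of 0.23 against control, and 73 of 81 at 0.30 in the second comparison. Of 73 mitochondrial ribosomal protein genes, 4 (5.48%) rose and 1 fell at a median of 0.11 against control, a share below the 8.23% of all genes tested, and 19 (26%) rose at 0.18 in the second comparison, where 11.8% of all genes did. Many ribosomal protein genes have processed copies, so their counts carry the same limit as Npm1. Differences between these lists were not tested, and members and lists were chosen with earlier results of these data known.

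**Figure D4:**
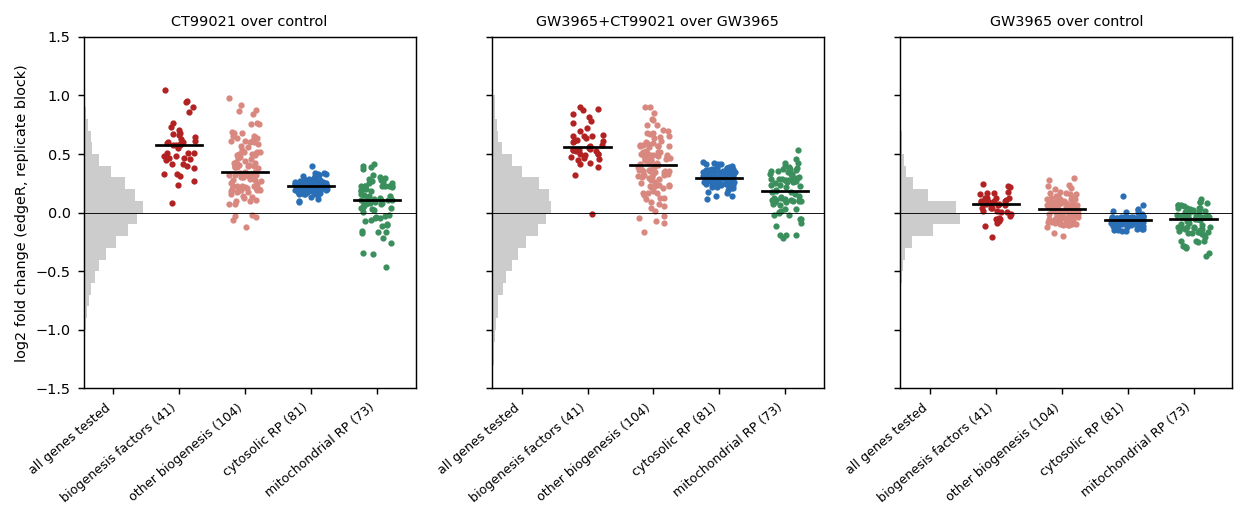
Distribution of log2 fold changes (y axis, edgeR with the replicate block) for all genes tested, the 41 biogenesis factors, 104 other biogenesis genes, 81 cytosolic and 73 mitochondrial ribosomal protein (RP) genes, in CT99021 against control, GW3965+CT99021 against GW3965 and GW3965 against control. All genes are a grey histogram, points are single genes and black bars are medians, which in the first 2 panels decrease from the biogenesis factors (0.58 and 0.56) through the other biogenesis genes (0.35 and 0.41) and cytosolic RP genes (0.23 and 0.30) to mitochondrial RP genes (0.11 and 0.18) and with GW3965 alone lie between -0.06 and 0.07.

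Of 4 mRNAs of the Myc family and its partner, 2 fell in each of the 2 comparisons and none rose. The mRNA of Myc fell by 0.57 ± 0.15 on the log2 scale in CT99021 against control (adjusted p = 0.0294) and by 0.62 ± 0.15 in GW3965+CT99021 against GW3965 (adjusted p = 0.0162). It had 46.7, 35.3 and 40.9 CPM in GW3965+CT99021, 49.8, 42.1 and 26.8 CPM in CT99021, 76.7, 62.3 and 52.5 CPM in GW3965 and 73.5, 62.1 and 39.6 CPM in control libraries, so the libraries with CT99021 were below their numbered partners in every number. Against control the call was lost without any 1 of the CT99021 libraries, or without control replicate 1 or 2 (highest adjusted p 0.145), and in GW3965+CT99021 against GW3965 it was lost without replicate 1 or 2 of either group (highest adjusted p 0.0752). Mycn, its relative in the nervous system, changed by -0.24 ± 0.14 (adjusted p = 0.266) and -0.06 ± 0.14 (adjusted p = 0.808), with 21, 16.7 and 8.41 CPM in GW3965+CT99021, 22.4, 20.4 and 9.72 CPM in CT99021, 20.2, 20.5 and 7.75 CPM in GW3965 and 22.4, 24.3 and 13.5 CPM in control libraries. Mycl1 fell by 1.20 ± 0.14 (adjusted p = 0.00104) and 1.33 ± 0.14 (adjusted p = 0.000513). Max, their dimer partner, was at 0.20 and 0.24 in the 2 comparisons and at 0.32 (95% interval 0.08 to 0.55, adjusted p = 0.0573) in GW3965+CT99021 against control, and did not pass. In GW3965+CT99021 against control, Mycn was at -0.43 (95% interval -0.73 to -0.12, adjusted p = 0.052) and did not pass. Myc (-0.47, adjusted p = 0.0459) and Mycl1 (-1.44, adjusted p = 0.00029) fell there. Of 20 alternatives with the block, 12 called Myc and 6 called Mycn in that comparison. Protein levels were not measured in these files, and the part of these factors in the changes of the biogenesis genes was not tested.

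Cell type markers moved with CT99021 as well. Of 6 neural progenitor markers, 4 fell in CT99021 against control and 5 in GW3965+CT99021 against GW3965 (medians -0.46 and -0.46). Of 6 mesenchyme and pericyte markers, 1 rose against control (Twist1, median of the list 0.44) and 4 rose in the second comparison (median 1.19). The summed level of the mesenchyme list was 890 to 3000 CPM in GW3965+CT99021, 327 to 3660 CPM in CT99021, 234 to 2410 CPM in GW3965 and 220 to 2790 CPM in control libraries. Single genes of 3 further lists fell in both comparisons: Lmx1b of the floor plate list (-0.58 and -0.75, with Foxa2 also at -0.43 in the second), Kdr of the endothelium list (-0.60 and -0.60) and Cx3cr1 of the microglia list (-1.57 and -0.93). The endothelium list summed to 27.4 to 44 CPM in GW3965+CT99021, 21.2 to 31.1 CPM in CT99021, 31.3 to 49.6 CPM in GW3965 and 30.3 to 41.1 CPM in control libraries. The microglia list summed to 6.37 to 11.6 CPM in GW3965+CT99021, 6.48 to 12.8 CPM in CT99021, 10.3 to 16.4 CPM in GW3965 and 11.7 to 20.3 CPM in control libraries. No midbrain, erythroid or stress marker passed in these 2 comparisons. None of the marker genes was at 0 throughout a group, and their part in the changes of the biogenesis factors was not tested.

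The proximal promoters of the members were read in RefSeq (build GRCm38.p6, 250 bases before to 50 after each start), which gave 39 windows for 36 members. The E-box CACGTG, which reads the same on both strands and is the core site of the Myc and Max family, was in 9 windows (23.1%), against 9.47% of the windows of all genes tested and 7.15% of all 32851 windows. The 9 members were Imp4, Nop2, Ltv1, Utp20, Pes1, Mybbp1a, Tsr1, Utp18 and Wdr43. The motif CTTTGAT of the TCF/LEF factors that act with beta-catenin, searched on both strands, was in 1 window (2.56%, Noc4l), against 2.54% of the windows of all genes tested. In CT99021 against control the median change was 0.61 for the 9 members with an E-box and 0.55 for the 27 with a window and none. A match of letters is not a binding site, and no match says only that these letters are absent from this window.

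The 180 bases from 150 before to 30 after the start are shown for members with a single window, chosen by their change in CT99021 against control. Rrp9, Gnl3, Nop2 and Tsr1 had the largest changes among these and Nop10 the smallest. The E-box played no part in the choice. They come from the coding strand, from chr9:106477159-106477338 for Rrp9, chr14:31019102-31019281 for Gnl3, chr6:125131733-125131912 for Nop2, chr11:74897930-74898109 for Tsr1 and chr2:112261776-112261955 for Nop10 in GRCm38.p6, with Gnl3 on the minus strand and the others on the plus strand. Capitals mark the E-box.
Rrp9: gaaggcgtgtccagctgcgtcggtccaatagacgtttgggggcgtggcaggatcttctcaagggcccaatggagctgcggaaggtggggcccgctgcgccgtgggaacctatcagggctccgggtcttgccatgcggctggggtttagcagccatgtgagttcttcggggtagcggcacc
Gnl3: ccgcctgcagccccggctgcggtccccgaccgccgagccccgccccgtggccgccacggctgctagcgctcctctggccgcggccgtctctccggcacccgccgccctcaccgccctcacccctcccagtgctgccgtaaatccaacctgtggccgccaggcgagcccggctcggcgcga
Nop2: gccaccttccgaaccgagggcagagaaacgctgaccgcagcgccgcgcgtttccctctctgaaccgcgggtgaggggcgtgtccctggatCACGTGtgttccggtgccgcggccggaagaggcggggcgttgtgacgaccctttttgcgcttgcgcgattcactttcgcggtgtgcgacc
Tsr1: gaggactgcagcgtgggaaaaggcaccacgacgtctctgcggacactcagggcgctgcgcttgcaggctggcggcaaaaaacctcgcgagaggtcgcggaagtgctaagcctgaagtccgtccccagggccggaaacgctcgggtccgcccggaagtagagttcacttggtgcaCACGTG
Nop10: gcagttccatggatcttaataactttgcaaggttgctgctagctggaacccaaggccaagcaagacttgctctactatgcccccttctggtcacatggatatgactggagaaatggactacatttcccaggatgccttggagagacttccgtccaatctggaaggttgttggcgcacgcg
The stretch of Nop10 holds 4 CpG pairs and 50.6% G and C, against 13 to 25 CpG pairs and 63.9% to 78.3% G and C in the other 4.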

How the data were processed

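RNA-seq of 12 libraries of ventral midbrain neurospheres was used. The authors deposited raw counts of reads, 1 table with 23965 gene rows and 1217 repeat rows. Per the submitters' processing notes, Bowtie and the mm9 build were used. Not given in the sources used here are versions, the counting program, annotation, strand and multi-mapping. Repeat rows (0.196% to 0.643% of counts) stayed out of library sizes and tests. Whether the table counts positions from 0 or 1 is not stated.

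Totals ran from 9646424 to 21314093 counts. Counts went into edgeR 4.0.16 in R 4.3.3 (TMM factors, filterByExpr, 15608 genes kept, 1 fit of all libraries, Benjamini-Hochberg adjusted p under 0.05). CPM and FPKM were computed here from the deposited counts and the table's transcript lengths. DESeq2 1.42.0 was an alternative. Scripts were tested on simulated data. Library pairs of a group differed beyond sampling noise (chi-square per gene 28.2 to 136).

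The design stated a fit without a block. Deviations from group means correlated in all 18 same-number pairs (r = 0.496 to 0.828), against -0.677 to 0.241 in 36 others, so numbers pair the libraries on evidence from the data, not the labels. The block took the common coefficient of variation to 12.7%, against 33.4% in its absence. Ratios of same-number libraries used a pseudocount of 0.5 CPM. The named members were the 3 with the largest and the 3 with the smallest change in CT99021 against control (none fell), with Fbl, Dkc1, Ncl, Npm1, Pes1, Bop1, Heatr1, Polr1a and Polr1b. Other names were chosen after values were seen. The members and lists were chosen with earlier results of these data known.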

Additional observations from a re-analysis of the deposited data

Results flagged for a closer look

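In CT99021 replicate 1, rows of structural RNAs outside the gene comparisons stood above the control libraries, in CPM of the gene total. The row of 7SLRNA, the RNA of the signal recognition particle, had 1050 against 3.7 to 6.6 in control libraries, that of 7SK, a regulator of transcription elongation, had 120 against 0 to 5.3, and that of the spliceosomal RNA U2 had 27 against 0.163 to 0.25. The other 11 libraries together reached 11.2, 5.53 and 0.478. The same library held the 7.95% of Lars2. The range of member counts when single libraries are left out, this one included, is given under the dependence on the processing.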

How the results depend on the processing

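The calls rest on the replicate block. Members past the test are given for CT99021 against control, GW3965+CT99021 against GW3965 and GW3965+CT99021 against control in turn. Without the block the counts were 0, 0 and 0, also with RLE factors, without the filter and with only the 2 groups. DESeq2 without the block gave 5, 5 and 12 (of 15608 genes, 123, 191 and 275 were higher). Leaving out the libraries numbered 3 without the block gave counts of 14, 18 and 15 (of 15496 genes, 142, 201 and 158 were higher). With the block they were 37, 40 and 39 (also with RLE factors and with DESeq2), 36, 40 and 39 without the filter, 37, 39 and 39 with only the 2 groups or without Lars2, 37, 40 and 40 without the libraries numbered 3, 38, 40 and 39 without these and GW3965+CT99021 replicate 2, and 32, 37 and 39 with library totals alone, added after seeing the data. Leaving out GW3965+CT99021 replicate 2 with the libraries numbered 3 keeps 7 libraries and leaves GW3965+CT99021 with 1 library, which is assumed to vary like the other groups, so its 40 and 39 say nothing of the stability of that group. With single libraries left out, all counts without the block were 0. Over all genes, those higher with the block were 1285, 1843 and 1766 of 15608 as called above. RLE factors gave 1226, 1649 and 1587, and DESeq2 gave 1477, 1817 and 1836. Without the filter they were 908, 1512 and 1379 of 21340. Only the 2 groups gave 1315, 1211 and 845, and leaving out Lars2 gave 1085, 1436 and 1404. Leaving out the libraries numbered 3 gave 1954, 2432 and 2118 of 15496, and library totals alone 641, 1181 and 1296.

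With the block and single libraries left out, CT99021 against control gave 26 (without control replicate 2), 29 (without CT99021 replicate 2), 30 (without control replicate 1 or 3), 31 (without CT99021 replicate 1) and 36 to 39 otherwise. Over all genes, those higher in these settings were 273 of 15846, 451 of 15853, 350 of 15841 or 876 of 15798, and 550 of 15836. In the other settings 953 to 1584 genes were higher. GW3965+CT99021 against GW3965 gave 30 and 31 (without GW3965 replicate 2 or 1), 34 and 35 (without GW3965+CT99021 replicate 2 or 3) and 37 to 40 otherwise, and GW3965+CT99021 against control gave 36 to 39. Over all genes, GW3965+CT99021 against GW3965 gave 787 and 768, then 922 and 1528, and 1114 to 2124 higher otherwise. GW3965+CT99021 against control gave 585 to 2101 genes higher. GW3965 against control, GW3965+CT99021 against CT99021 and the interaction gave 0 in each setting run, and the interaction could not be fitted with only 2 groups.

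Over 20 alternatives with the block, 26, 30 and 36 members passed in all. In CT99021 against control, Bop1, Gar1, Gtpbp4, Heatr1, Ltv1, Ncl, Noc3l, Nop14, Nop58, Rrs1 and Utp18 were lost in at least 1. In GW3965+CT99021 against GW3965, Gtpbp4, Imp3, Imp4, Ltv1, Nhp2, Noc3l, Nop14, Rrp1b, Rrs1 and Utp18 were lost in at least 1. Among the results tried, signs turned only for Nop10 and Mycn, neither past the test in the fit with the block used above. In GW3965+CT99021 against control, Mycn passed in 6 of 20 alternatives with the block, at changes of -0.57 to -0.17 over all 20. Without the block, leaving out single libraries took Nop10 from -0.04 to 0.22 in CT99021 against control, from -0.31 to 0.20 in GW3965+CT99021 against GW3965 and from -0.33 to 0.13 in GW3965+CT99021 against control, and Mycn from -0.43 to 0.09 and from -0.42 to 0.22 in the first 2 of these. With the block, where signs turned in GW3965+CT99021 against GW3965, Nop10 was 0.04, 0.05 and 0.09 and Mycn 0.02 and 0.04. On the 7 libraries left without those numbered 3 and GW3965+CT99021 replicate 2, the block gave 0.08 and 0.16 for Nop10 in GW3965+CT99021 against GW3965 and against control, and 0.03 for Mycn against GW3965. The causes were not tested. The lowest count of a member was 111, for Gar1 in GW3965 replicate 3, and standard errors in CT99021 against control with the block ran from 0.06 to 0.16.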

Other observations

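Host genes of small nucleolar RNAs, which carry the guide RNAs of the snoRNPs in their introns, were looked at after their values were seen, as the Snhg and Gas5 rows. Of 12 rows, 11 were tested. In CT99021 against control 6 rose and none fell, at a median of 0.78, and in GW3965+CT99021 against GW3965 5 rose at a median of 0.67, with 4 rising in both. These are 54.5% and 45.5% of the genes tested, where 8.23% and 11.8% of all genes rose. In GW3965 against control none passed, at a median of 0.38 (0 for all genes), and in the interaction none passed, at a median of -0.39 (0.02 for all genes), beside 0.07 and 0.03 for the biogenesis factors. The difference between the lists was not tested. Snhg1 had 52.3, 76.7 and 125 CPM in GW3965+CT99021, 67.9, 67.6 and 71.6 CPM in CT99021, 29.5, 36.1 and 71.5 CPM in GW3965 and 24.6, 34.2 and 41.6 CPM in control libraries, a change of 1.10 ± 0.20 in CT99021 against control (edgeR with the replicate block, adjusted p = 0.00742). Snhg6 changed by 1.15 ± 0.23 (adjusted p = 0.0108) in the same comparison and fit. These rows hold spliced host transcripts, and whether reads of the small RNAs themselves fall in them was not given in the sources used here.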
